A study of Homo sapiens with 6 samples.

Results

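The 51 genes described here encode the proteins that copy DNA in human cells, from the factors that mark and license origins to the helicase, the polymerases, the sliding clamp and the proteins that finish the new strands. They were chosen by gene symbol from knowledge of the replication machinery, but with earlier results of these data known. All 51 were found among the 62700 genes of the expression tables. All 51 passed the filter on low values, a mean of at least 1 TPM (a level scaled for transcript length and to a fixed total in each library) over the 6 libraries, which 14020 genes passed. RNA-Seq was run on SK-Hep1, an established human line from a liver tumour, to compare cells with knockdown of the long noncoding RNA RAB30-DT with control cells. The 3 control libraries are titled shControl, whereas their genotype label is WT, and the 3 knockdown libraries are titled shRAB30-DT. Per the study's methods, knockdown lines were made by lentiviral delivery of a short hairpin RNA and puromycin selection of stable cells. The labels do not say whether the libraries came from separate cultures or whether the 3 knockdown libraries carry the same hairpin, so p-values measure only the spread between these libraries, which may be technical.

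Before S phase, the origin recognition complex (ORC), CDC6 and CDT1 load the ring of MCM2 to MCM7 onto DNA as an inactive double hexamer. Kinases then recruit CDC45 and the GINS complex to this ring to form the active CMG helicase, and polymerase alpha-primase, polymerases delta and epsilon, the clamp PCNA and its loader RFC copy the unwound strands. Many of these genes are transcribed at the G1 to S transition under control of E2F factors, so their RNA is commonly read as a mark of proliferating cells.

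RAB30-DT itself (ENSG00000246067.10, hg38 chr11:83072052-83107789, plus strand) was at 18.16, 11.51 and 13.91 TPM in control cells (replicates 1, 2 and 3) and at 11.94, 10.85 and 6.5 TPM in the knockdown libraries in the same order. Knockdown replicate 1 was above control replicate 2, so the groups overlapped. The difference in log2 level was −0.55 (standard error 0.27, limma adjusted p = 0.355), and an exact two-sided permutation test gave p = 0.2, where 3 libraries against 3 cannot go below 0.1. The depth of the libraries is unknown from TPM, and between 20127 and 21675 genes were above 0 TPM. Mitochondrially encoded genes took between 8.75% and 11.1% of the TPM. Of 12 hepatocyte markers, 1 passed the filter, SERPINA1, at 22.0 ± 3.36 TPM (SD, n = 3) in control and 33.5 ± 4.68 TPM in knockdown cells, while ALB, APOB, TTR, HNF4A and CYP3A4 were listed at 0 in every library. Of 10 endothelial markers, ENG and EGFL7 passed, and KDR and ERG were listed at 0. Of 10 mesenchymal markers, 9 passed, with VIM (3883 ± 104 TPM in control and 4615 ± 243 TPM in knockdown cells, SD, n = 3) and SPARC (1497 ± 27.7 and 1220 ± 68.9 TPM) the most abundant. Among these 9, 1 was higher in the knockdown libraries without overlap (VIM), 3 were lower without overlap (SPARC, THY1 and TAGLN) and 5 overlapped. Of all 14020 genes tested, 1387 were higher and 1873 (13.4%) were lower without overlap. In limma, 0 of the 9 had an adjusted p under 0.05.

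In the knockdown libraries, 50 of the 51 replication genes had a mean log2 level below that of the control libraries, against 53.7% of all genes tested. This number was 50 under median-of-ratios scaling and 49 under quantile normalization. The share of higher genes among all called genes was 35.6% without such scaling, and 50% and 48.4% with it. Over all alternative fits that share lay between 30.8% with no filter on low values and 60% without knockdown replicate 2. The median log2 fold change over the 51 genes was −0.61, beside −0.04 over all 14020 genes. In 34 of them all 3 knockdown values were below all 3 control values, which held for 13.4% of all genes, and 34 had an unadjusted p under the 0.05 threshold with a lower level, against 9.70% of all genes. At an adjusted p under that threshold in limma's test over all genes, 5 of the 51 fell and none rose, where 0.670% of all genes fell. The 5 genes were the helicase subunits MCM3, MCM4 and MCM6, the helicase activator CDC45 and the fork protection gene TIMELESS, with log2 fold changes between −1.20 and −0.98. Median-of-ratios scaling left 2 of these calls, MCM3 and MCM6, with adjusted p of 0.0580 for MCM4, 0.0757 for CDC45 and 0.0514 for TIMELESS from limma. Without limma's trend of variance with level 2 were left as well, MCM3 and TIMELESS. The number also rested on single libraries, as did the share of all genes that fell. It was 11 without control replicate 1, where 2.19% of all genes fell, and 4 without control replicate 3, where 0.672% did. It was 0 by limma without control replicate 2 or without any 1 of the knockdown replicates, where between 0.0428% and 0.0574% of all genes fell. Across these fits with 1 library left out, the number of the 51 genes with an unadjusted p under the threshold was between 25 and 37, and the median of the 51 log2 fold changes stayed between −0.64 and −0.52. The share of all genes with such a p was not counted in these fits, so that number has no background beside it. Fewer cells in S phase and less of each RNA per cell cannot be told apart in bulk RNA.

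**Figure D1:**
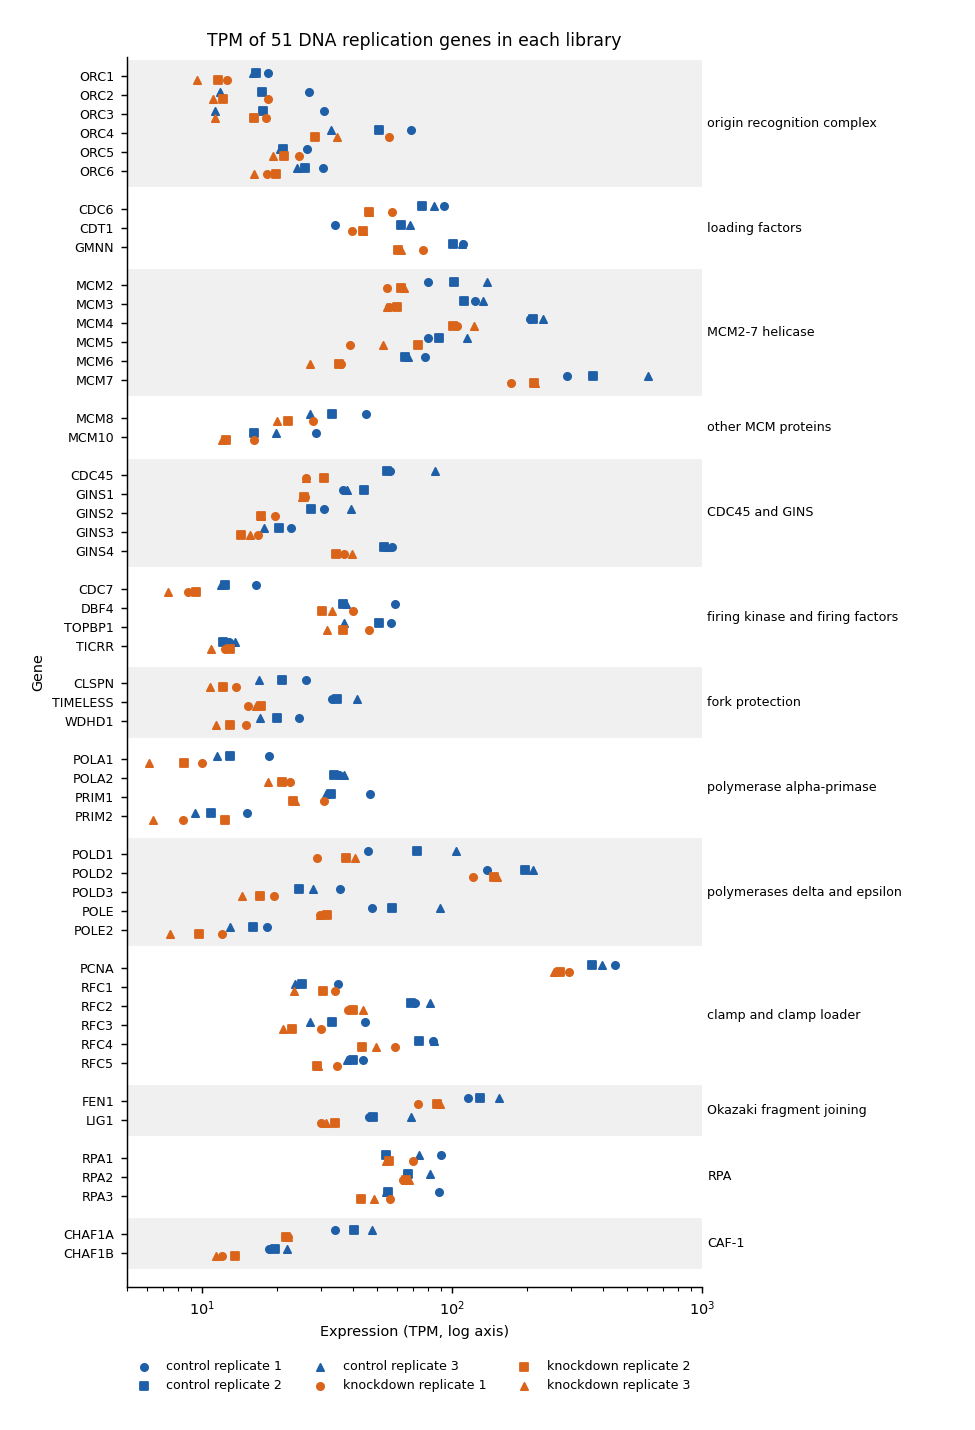
TPM on a log axis of the 51 replication genes, 1 row per gene, grouped by complex, with control libraries in blue and knockdown libraries in orange and the marker shape giving the replicate number. The orange points of all 6 MCM2 to MCM7 genes lie to the left of the blue points, whereas those of the 3 RPA genes overlap them.

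The summed level of the 51 genes was 3393, 3242 and 3818 TPM in control cells (replicates 1, 2 and 3) and 2205, 2156 and 2114 TPM in the knockdown libraries in the same order. The sums did not overlap, and the mean in knockdown cells was 38.1% lower (3485 ± 299 against 2159 ± 45.7 TPM, SD, n = 3). In control cells the genes covered a wide range of levels, with MCM7 (421 ± 167 TPM) and PCNA (404 ± 44.5 TPM) at the top, followed by MCM4 (216 ± 13.6 TPM), POLD2 (182 ± 38.2 TPM) and FEN1 (133 ± 19.2 TPM). The ranges of MCM7 and PCNA overlapped over the 3 control libraries, as did those of MCM4 and POLD2. At the bottom were PRIM2 (11.8 ± 2.98 TPM), TICRR (12.8 ± 0.707 TPM) and CDC7 (13.6 ± 2.53 TPM), whose ranges overlapped too. Across the 51 genes, the log2 fold change had a Spearman correlation of −0.238 with the mean log2 level, given as a description of genes that share the same libraries.

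**Figure D2:**
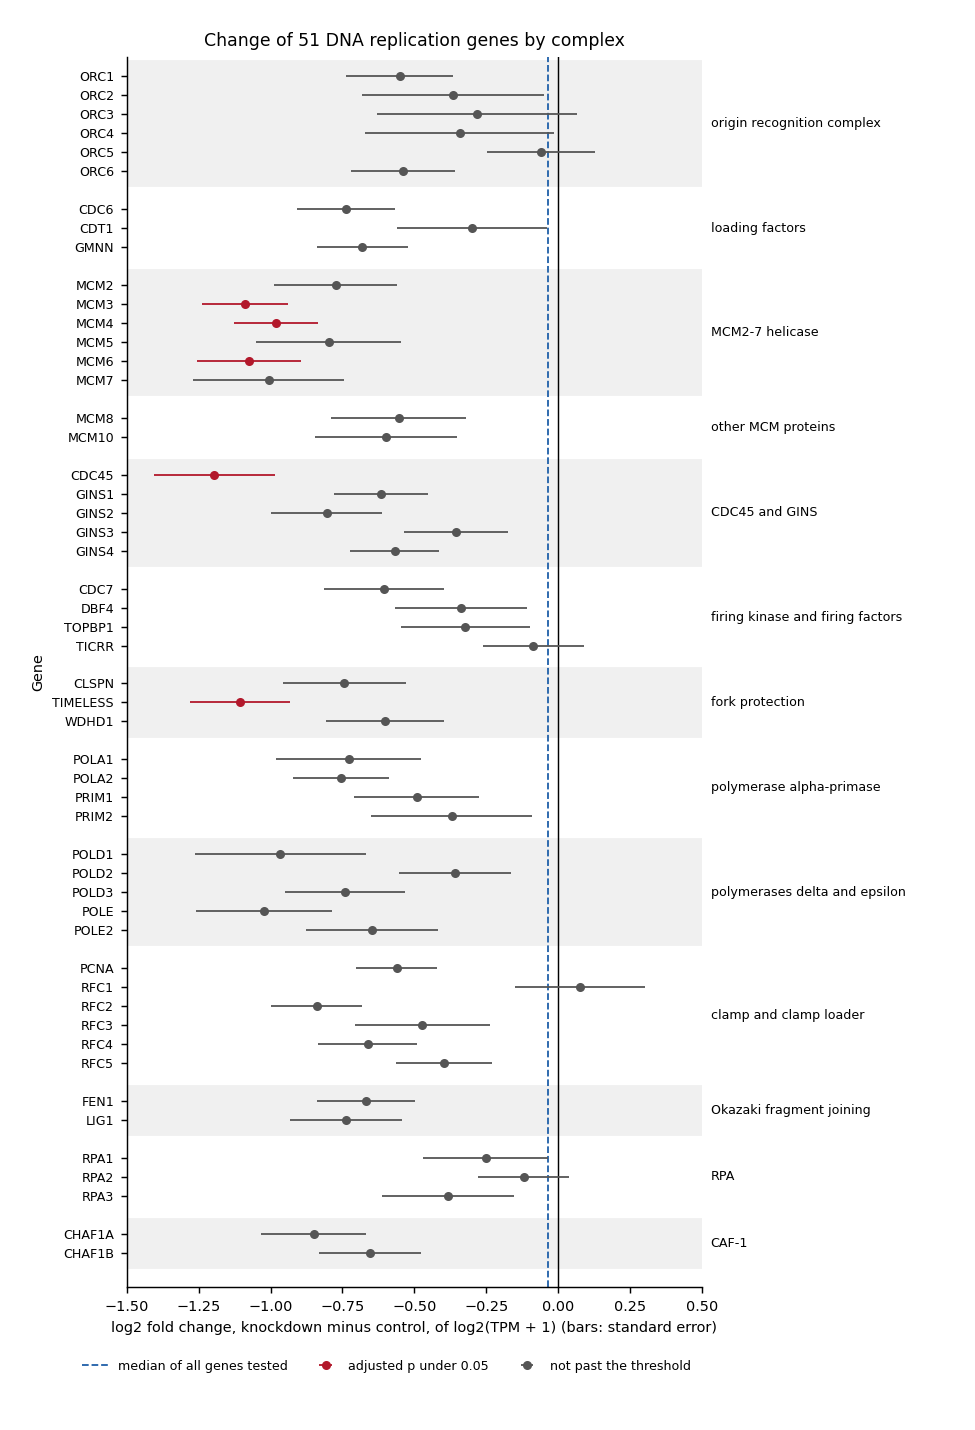
Log2 fold change (knockdown minus control, on log2(TPM + 1)) of the 51 replication genes by complex, with bars for 1 standard error, the 5 genes past the threshold in red and the median of all 14020 genes tested as a dashed line. All genes but RFC1 lie left of zero, and CDC45, TIMELESS, MCM3 and MCM6 lie farthest from it.

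The origin recognition complex, whose 6 subunits mark replication origins, had a median log2 fold change of −0.35. None of the 6 genes passed the threshold in limma, and 2 were lower at an unadjusted p under 0.05, against 9.70% of all genes. These 2 were ORC1, the subunit whose abundance is known to oscillate with the cell cycle, and ORC6, the smallest subunit. ORC1 was at 18.34, 16.37 and 16.01 TPM in control cells (replicates 1, 2 and 3) and at 12.57, 11.64 and 9.58 TPM in the knockdown libraries in the same order (log2 fold change −0.55, standard error 0.19, adjusted p = 0.194 from limma). ORC6 was at 30.35, 25.79 and 24.08 TPM against 18.22, 19.83 and 16.12 TPM (log2 fold change −0.54, adjusted p = 0.192 from limma). For both genes all 3 knockdown values were below all 3 control values. The other 4 subunits overlapped between the groups. ORC4, the most abundant of the 6, was at 68.75, 51.04 and 32.69 TPM in control and 56.08, 28.35 and 34.79 TPM in knockdown libraries, so its control values alone covered a wider range than the difference of the means. ORC5 was at 22.7 ± 3.20 TPM in control and 21.6 ± 2.64 TPM in knockdown cells (SD, n = 3), with a log2 fold change of −0.06 that became 0.048 without control replicate 1 and 0.019 without knockdown replicate 3. Without control replicate 1, ORC3 (−0.28 with all libraries) was at 0.075. The ratio of ORC1 to ORC5 within each library was 0.696, 0.777 and 0.779 in control and 0.514, 0.546 and 0.499 in knockdown libraries, without overlap. This and the other gene ratios were chosen with the values known and were not tested.

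CDC6 and CDT1 bring the MCM ring to ORC-bound DNA, and geminin, the product of GMNN, binds CDT1 and prevents loading after S phase has begun. CDC6 was at 93.18, 75.64 and 84.34 TPM in control and 57.80, 46.40 and 46.62 TPM in the knockdown libraries in the same order, with a log2 fold change of −0.74 (standard error 0.17, adjusted p = 0.0910 from limma). GMNN was at 110.57, 100.79 and 109.76 TPM against 76.41, 61.04 and 62.57 TPM, with a log2 fold change of −0.68 (standard error 0.16, adjusted p = 0.0911 from limma). Neither passed the threshold, although the groups did not overlap for either gene. CDT1 was at 34.14, 62.59 and 67.90 TPM in control and 39.76, 44.06 and 43.97 TPM in knockdown libraries (log2 fold change −0.30, adjusted p = 0.598 from limma). Its lowest value of all was that of control replicate 1, so the groups overlapped. The ratio of GMNN to CDT1 was 3.24, 1.61 and 1.62 in control and 1.92, 1.39 and 1.42 in knockdown libraries, which overlapped as well.

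The MCM2 to MCM7 ring, the motor of the replicative helicase, was the group with the largest median log2 fold change of the 13 groups, −0.99, and its lowest and highest medians over the processing alternatives were −1.04 and −0.81. The order held in all of these but without control replicate 3, where the fork protection genes had the larger median. In all 6 genes all 3 knockdown values were below all 3 control values. MCM3 (hg38 chr6:52264014-52284881, minus strand) was at 123.19, 111.60 and 132.68 TPM in control and 56.01, 59.98 and 54.78 TPM in the knockdown libraries in the same order. It fell by 1.09 in log2 units (standard error 0.15, adjusted p = 0.0252 from limma), and its mean was 53.5% lower. MCM4 (chr8:47960185-47978160, plus strand) was at 205.96, 210.77 and 231.50 TPM against 104.32, 100.70 and 122.75 TPM, and fell by 0.98 (standard error 0.15, adjusted p = 0.0291 from limma). MCM6 (chr2:135839626-135876443, minus strand) was at 77.91, 64.65 and 66.46 TPM against 36.04, 35.17 and 26.93 TPM, and fell by 1.07 (standard error 0.18, adjusted p = 0.0417 from limma). In these 3 genes the values were tight within each group and the highest knockdown library stayed well under the lowest control library.

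The other 3 subunits had wider control values and did not pass the threshold. The difference of MCM7 was of like size to those above, and the differences of MCM2 and MCM5 were smaller. MCM2 was at 80.43, 101.75 and 137.44 TPM in control and 54.92, 62.68 and 64.17 TPM in knockdown libraries (log2 fold change −0.77, standard error 0.21, adjusted p = 0.131 from limma). MCM5 was at 80.01, 88.66 and 115.15 TPM against 39.18, 72.78 and 53.10 TPM (log2 fold change −0.80, standard error 0.25, adjusted p = 0.169 from limma). MCM7 was at 288.15, 364.94 and 608.69 TPM against 172.18, 212.03 and 214.47 TPM (log2 fold change −1.01, standard error 0.26, adjusted p = 0.119 from limma). Control replicate 3 was the highest library for all 3 of these genes, and the reason for its distance was not tested. MCM7 shares its locus with AP4M1 (38.4 TPM), and because the strand used in counting is not given in the sources used here, reads of overlapping genes cannot be told apart.

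The 6 subunits occur in equal numbers in the ring, but their RNAs did not. The summed MCM2 to MCM7 level was 1030 ± 231 TPM in control and 514 ± 44.7 TPM in knockdown cells (SD, n = 3), 50.1% lower, and MCM7 made up 39.8 ± 6.79% and 38.7 ± 1.41% of it. MCM4 made up 21.5 ± 3.18% and 21.3 ± 2.42%, and MCM6 7.04 ± 1.99% and 6.43 ± 1.38%. The shares overlapped between the groups for 5 of the 6 genes. For MCM2 they did not, with 9.40, 10.8 and 10.6% in control and 11.9, 11.5 and 12.0% in knockdown replicates 1, 2 and 3.

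**Figure D3:**
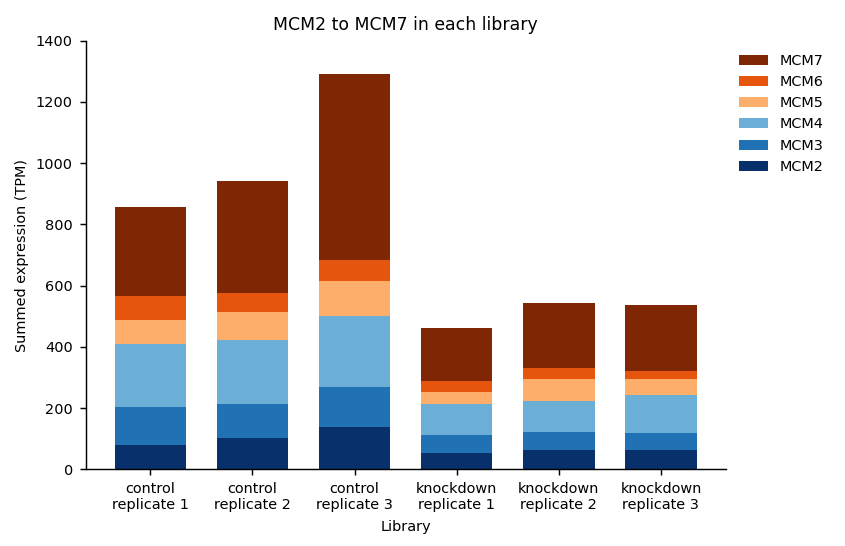
Summed TPM of MCM2 to MCM7 in each of the 6 libraries, as bars stacked by gene. Control bars reach 856, 942 and 1292 TPM and knockdown bars 463, 543 and 536 TPM, and the tallest segment of each bar is MCM7.

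MCM4 and MCM5 had no promoter window to search, and the windows of the 4 other subunits held the letters of E2F sites. They are shown because E2F sites are the best known common feature of these promoters, and because their number and spacing differ between the subunits. The stretches come from RefSeq windows on GRCh38.p14, from 250 bases before to 50 after the start site, and capitals mark TTTCCCGC, TTTGGCGC, TTTCGCGC or TTTGCCGC on either strand. MCM2 (chr3:127598398-127598439, plus strand) and MCM6 (chr2:135876507-135876610, minus strand) held matches that overlap on opposite strands, 2 in MCM2 and 4 in MCM6. MCM3 (chr6:52284724-52284931, minus strand) and MCM7 (chr7:100101384-100101599, minus strand) each held 2 matches far apart, 1 upstream and 1 close to the start site.
MCM2: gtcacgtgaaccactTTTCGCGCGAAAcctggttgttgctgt
MCM6: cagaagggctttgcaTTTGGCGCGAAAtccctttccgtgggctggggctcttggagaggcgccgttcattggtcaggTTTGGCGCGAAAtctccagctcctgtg
MCM3: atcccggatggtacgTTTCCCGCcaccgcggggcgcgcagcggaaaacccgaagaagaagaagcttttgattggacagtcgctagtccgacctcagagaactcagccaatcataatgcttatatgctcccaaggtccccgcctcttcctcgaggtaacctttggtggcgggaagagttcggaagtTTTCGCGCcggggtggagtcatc
MCM7: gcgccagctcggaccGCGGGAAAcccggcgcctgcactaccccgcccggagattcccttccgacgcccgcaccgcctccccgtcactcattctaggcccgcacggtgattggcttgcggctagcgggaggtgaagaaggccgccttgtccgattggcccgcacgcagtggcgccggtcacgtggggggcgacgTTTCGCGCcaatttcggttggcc

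MCM8, which forms a helicase with MCM9 in homologous recombination, and MCM10, which joins the helicase as it is activated, are not part of the ring. MCM8 was at 45.09, 33.24 and 26.97 TPM in control and 27.89, 21.99 and 19.97 TPM in knockdown libraries (log2 fold change −0.55, adjusted p = 0.282 from limma). MCM10 was at 28.70, 16.10 and 19.69 TPM against 16.16, 12.51 and 12.05 TPM (log2 fold change −0.60, adjusted p = 0.274 from limma). In both, knockdown replicate 1 was just above the lowest control library.

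CDC45 (hg38 chr22:19479457-19520612, plus strand), which joins the MCM ring to make the active helicase, had the largest log2 fold change of the 51 genes, except under arrayWeights, where MCM4 had it, and without control replicate 3, where MCM6 had it. It was at 56.75, 55.12 and 85.43 TPM in control and 26.06, 30.78 and 26.14 TPM in the knockdown libraries in the same order. It fell by 1.20 in log2 units (standard error 0.21, adjusted p = 0.0470 from limma), and its mean was 57.9% lower. The 4 GINS genes, whose products form 1 complex within the same helicase, did not pass the threshold in limma, but all 3 knockdown values were below all 3 control values in each of them. GINS4 was at 57.80, 53.46 and 55.07 TPM in control and 37.14, 34.33 and 39.94 TPM in knockdown libraries (log2 fold change −0.57, adjusted p = 0.128 from limma). GINS2 had the largest difference of the 4, with 30.70, 27.33 and 39.48 TPM against 19.52, 17.21 and 17.23 TPM (log2 fold change −0.81, adjusted p = 0.0979 from limma), and its gene overlaps GSE1 (18.9 TPM). GINS1 and GINS3 had log2 fold changes of −0.62 and −0.36.

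Of the firing factors, CDC7 and DBF4 form the kinase that activates loaded MCM rings, and TOPBP1 and TICRR help to bring CDC45 and GINS to them. CDC7 was at 16.51, 12.36 and 11.92 TPM in control and 8.81, 9.49 and 7.33 TPM in knockdown libraries, without overlap (log2 fold change −0.61, standard error 0.21, adjusted p = 0.201 from limma). Its partner DBF4 was at 44.5 ± 12.7 TPM in control and 34.4 ± 5.17 TPM in knockdown cells (SD, n = 3), with overlap between the groups, and its gene shares its locus with SLC25A40 (28.6 TPM). TOPBP1 was at 56.76, 50.92 and 36.97 TPM against 46.65, 36.60 and 31.51 TPM (log2 fold change −0.32, adjusted p = 0.517 from limma), and its groups overlapped as well. TICRR stood at 12.88, 12.09 and 13.50 TPM in control and 12.32, 12.89 and 10.91 TPM in knockdown libraries, so the groups overlapped (log2 fold change −0.09, standard error 0.18). The median of the 4 genes was −0.33, and 0 of them passed the threshold in limma. At an unadjusted p under 0.05, 1 of the 4 was lower, against 9.70% of all genes.

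TIMELESS (hg38 chr12:56416363-56449426, minus strand), which travels with the fork and stabilises it, was at 33.03, 34.54 and 41.51 TPM in control and 15.24, 17.18 and 16.47 TPM in the knockdown libraries in the same order. It fell by 1.11 in log2 units (standard error 0.17, adjusted p = 0.0343 from limma), with a mean 55.2% lower and no overlap. CLSPN, which encodes the checkpoint mediator claspin, was at 26.16, 20.90 and 16.86 TPM against 13.70, 12.12 and 10.74 TPM (log2 fold change −0.74, adjusted p = 0.145 from limma). WDHD1, which links the helicase to polymerase alpha, was at 24.44, 20.02 and 17.08 TPM against 15.04, 12.93 and 11.39 TPM (log2 fold change −0.60, adjusted p = 0.199 from limma). Neither passed the threshold, although neither overlapped between the groups.

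Polymerase alpha and primase start each new strand with an RNA and DNA primer. POLA2, the regulatory subunit, was at 35.27, 33.63 and 37.05 TPM in control and 22.49, 20.91 and 18.30 TPM in knockdown libraries (log2 fold change −0.76, standard error 0.17, adjusted p = 0.0832 from limma), without overlap. POLA1, the catalytic subunit, was at 18.48, 12.96 and 11.47 TPM against 10.01, 8.47 and 6.15 TPM (log2 fold change −0.73, adjusted p = 0.205 from limma), also without overlap. PRIM1, the primase catalytic subunit, was at 46.86, 32.78 and 31.41 TPM against 30.84, 23.20 and 23.47 TPM (log2 fold change −0.49, adjusted p = 0.305 from limma). Its gene overlaps NACA, which was at 1728 TPM, far above its own level, so its values are uncertain. PRIM2 was at 15.12, 10.89 and 9.37 TPM in control and 8.37, 12.36 and 6.35 TPM in knockdown libraries, with knockdown replicate 2 above 2 of the control libraries.

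Polymerase epsilon copies mainly the leading strand and polymerase delta the lagging strand. POLE, the catalytic subunit of epsilon, was at 47.84, 57.28 and 89.37 TPM in control and 29.66, 31.53 and 29.71 TPM in knockdown libraries (log2 fold change −1.02, standard error 0.24, adjusted p = 0.0911 from limma). POLD1, the catalytic subunit of delta, was at 45.93, 72.33 and 104.21 TPM against 28.82, 37.66 and 41.11 TPM (log2 fold change −0.97, standard error 0.30, adjusted p = 0.161 from limma). Both catalytic genes were lower in every knockdown library, but their control values spread over a wider range than the difference of the means. POLD2, an accessory subunit of delta with the highest level of the 5, was at 138.62, 196.01 and 211.04 TPM against 121.36, 146.96 and 151.82 TPM, with overlap (log2 fold change −0.36, adjusted p = 0.397 from limma). The ratio of POLD1 to POLD2 within each library was 0.331, 0.369 and 0.494 in control and 0.237, 0.256 and 0.271 in knockdown libraries, without overlap. The accessory subunits POLD3 and POLE2 had log2 fold changes of −0.74 and −0.65, both without overlap and both short of the threshold.

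PCNA, the ring that holds the polymerases on DNA, was at 450.33, 361.72 and 399.71 TPM in control and 293.48, 269.19 and 255.17 TPM in knockdown libraries. The groups did not overlap, and the difference in log2 level was −0.56 (standard error 0.14, adjusted p = 0.104 from limma). RFC2 to RFC5 are the small subunits of the loader that opens the PCNA ring, and RFC1 is its large subunit. RFC2 was at 71.30, 68.61 and 81.79 TPM against 38.39, 40.15 and 43.89 TPM (log2 fold change −0.84, standard error 0.16, adjusted p = 0.0578 from limma), the nearest to the threshold of the genes that missed it. It passed in 6 of the alternative fits, among them the fit without genes under a mean of 5 TPM and the fit with the GC trend removed. RFC1 was at 35.06, 25.05 and 23.45 TPM in control and 34.17, 30.51 and 23.23 TPM in knockdown libraries, the only 1 of the 51 genes with a log2 fold change above 0 (0.08, standard error 0.23, adjusted p = 0.898 from limma), and its log2 fold change was −0.0335 without control replicate 3 and −0.041 without knockdown replicate 1. The ratio of RFC2 to RFC1 was 2.03, 2.74 and 3.49 in control and 1.12, 1.32 and 1.89 in knockdown libraries, without overlap. RFC3, RFC4 and RFC5 had log2 fold changes of −0.47, −0.66 and −0.40, and RFC4 and RFC5 overlap the abundant genes EIF4A2 (213 TPM) and WSB2 (86.5 TPM).

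FEN1, the nuclease that trims the flaps of Okazaki fragments, was at 115.79, 129.80 and 153.68 TPM in control and 73.09, 86.87 and 89.54 TPM in knockdown libraries (log2 fold change −0.67, standard error 0.17, adjusted p = 0.112 from limma). LIG1, the ligase that seals them, was at 46.76, 48.39 and 68.56 TPM against 30.02, 34.18 and 31.37 TPM (log2 fold change −0.74, standard error 0.20, adjusted p = 0.121 from limma). Both were without overlap and short of the threshold. CAF-1 places histones on the new DNA, and its large subunit CHAF1A was at 33.91, 40.49 and 47.72 TPM against 22.01, 21.77 and 21.99 TPM (log2 fold change −0.85, standard error 0.18, adjusted p = 0.0761 from limma). The 3 knockdown values of CHAF1A were nearly the same, and its gene overlaps UBXN6 (61.9 TPM). CHAF1B was at 18.50, 19.53 and 21.87 TPM in control and 12.04, 13.59 and 11.34 TPM in knockdown libraries, also without overlap (log2 fold change −0.65, adjusted p = 0.125 from limma).

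RPA, the trimer that coats single-stranded DNA in replication and in repair, had the smallest median of the 13 groups, −0.25, except without control replicate 1 or 2, where the median of the ORC genes was nearer to 0. In limma 0 of its 3 genes passed the threshold, and 0 were lower at an unadjusted p under 0.05, against 9.70% of all genes. RPA2 was at 66.14, 66.75 and 81.60 TPM in control and 63.59, 65.35 and 67.23 TPM in knockdown libraries (log2 fold change −0.12, standard error 0.16, adjusted p = 0.738 from limma), and its sign turned to 0.025 under quantile normalization. RPA3 was at 89.03, 55.34 and 54.20 TPM against 56.45, 43.31 and 48.58 TPM, and RPA1 at 72.7 ± 17.7 and 60.1 ± 8.71 TPM (SD, n = 3). All 3 overlapped between the groups. The ratio of PCNA to RPA2 was 6.81, 5.42 and 4.90 in control and 4.62, 4.12 and 3.80 in knockdown libraries, without overlap.

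Members of the set differed between libraries of the same group in step with the GC content of their transcripts. Within the control group, the deviation of the 51 genes from the group mean had a Spearman correlation with GC content of −0.845 in replicate 1, 0.0571 in replicate 2 and 0.863 in replicate 3, and the knockdown replicates gave −0.785, 0.361 and 0.689. Over all 14020 genes the control replicates gave −0.688, 0.277 and 0.546, so a dependence in the same order of libraries was present across the transcriptome. The 51 genes share their libraries, so these values are a description. The GC-rich POLD1 (63.9% GC) had its lowest control value in replicate 1, and the GC-poor ORC3 (39.3% GC) was at 30.69 TPM there and 11.25 TPM in control replicate 3. The log2 fold change had a correlation of −0.440 with GC content over the 51 genes and of −0.127 over all 14020 genes. Once the dependence on GC content had been removed from each library by loess, the standard error of the log2 fold change was smaller in 50 of the 51 genes, with a median of 0.13 in place of 0.21, and 31 of the 51 genes fell, where 5.09% of all genes did. The 31 included all 5 genes named above. They also held all 6 of MCM2 to MCM7, all 3 fork protection genes, both Okazaki fragment genes, both CAF-1 genes, 4 of the 5 polymerase delta and epsilon genes and 1 of the 6 ORC genes, ORC6, but 0 of the 3 RPA genes by limma. In 41 of the 51 all 3 knockdown values were then below all 3 control values, against 19.4% of all genes. The median log2 fold change was −0.66 after removal. PCNA (−0.59, standard error 0.09, adjusted p = 0.0174 from limma) and CDC6 (−0.76, standard error 0.11, adjusted p = 0.0145 from limma) passed the threshold with the trend removed. CDT1 (64.3% GC) had a log2 fold change of −0.19 after removal, beside −0.10 for ORC5, −0.07 for TICRR and 0.04 for RFC1, with unadjusted p above 0.05 for all 4 in limma.

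**Figure D4:**
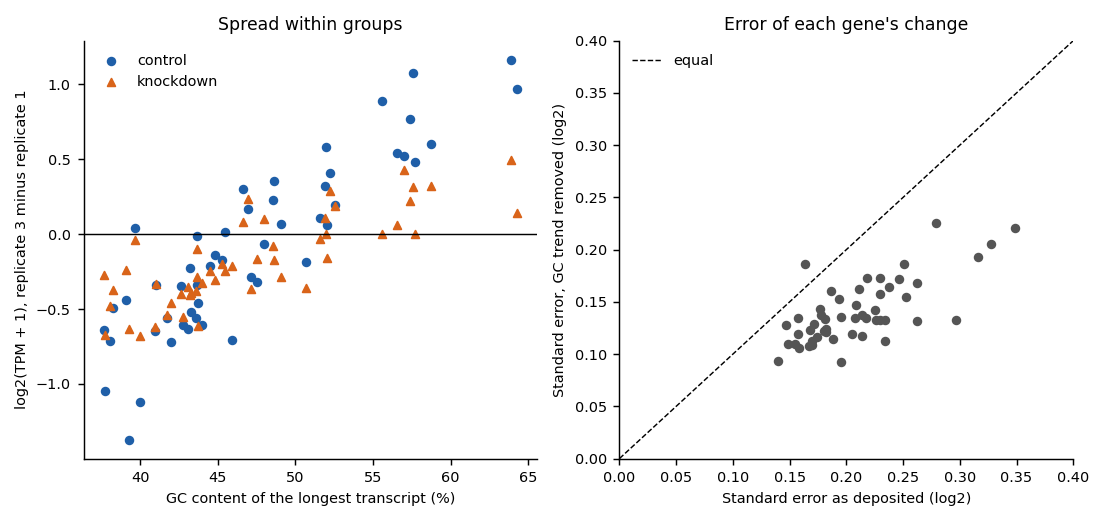
Left, log2(TPM + 1) of replicate 3 minus replicate 1 against the GC content (%) of the longest transcript, for each of the 51 genes in the control (blue) and knockdown (orange) group. Right, standard error of each gene's log2 fold change with the GC trend removed against that from the deposited values, with the line of equal errors; 50 of 51 points lie below the line.

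Of the 51 genes, 45 matched a RefSeq promoter window, and the other 6 were MCM4, MCM5, GINS4, POLD3, RPA2 and RPA3. E2F letters as spelled above were in 20 of the 45 windows (44.4%), in 5.58% of the 10093 windows of genes tested and in 3.33% of all 27305 windows. CCAAT, bound by NF-Y, was in 55.6% of the 45 windows and 37.0% of those of genes tested, and GGGCGG, a GC box, in 75.6% and 71.2%. TTTGAA, the letters of the CHR element known from genes of mitosis, was in 2.22% and 9.24%. Both strands were searched for each, and a match is a description of the letters. Among the 20 genes with E2F letters, all 3 knockdown values were below all 3 control values in 15, the median log2 fold change was −0.73, and 2 fell, MCM3 and MCM6. Among the 25 without them, 15 did not overlap either, the median was −0.55, and 2 fell, CDC45 and TIMELESS. Over all genes tested, 13.4% were lower without overlap and 0.670% fell. Only exact spellings were counted, and windows without them can hold near ones, such as TTTGGCGG in CDC45. Stretches are shown for the loader CDC6, the clamp PCNA, POLA2 and POLE, which did not overlap between the groups, and for CDT1, ORC3 and TOPBP1, which hold such letters too and did overlap. The first 4 lie at chr17:40287871-40287908 (plus strand), chr20:5126659-5126696 (minus strand), chr11:65261894-65261931 (plus strand) and chr12:132687338-132687375 (minus strand). The last 3 lie at chr16:88803739-88803776 (plus strand), chr6:87590108-87590145 (plus strand) and chr3:133661926-133661963 (minus strand).
CDC6: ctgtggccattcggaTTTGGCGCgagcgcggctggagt
PCNA: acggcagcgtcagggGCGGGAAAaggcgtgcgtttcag
POLA2: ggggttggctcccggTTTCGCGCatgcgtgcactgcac
POLE: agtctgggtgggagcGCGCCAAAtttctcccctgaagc
CDT1: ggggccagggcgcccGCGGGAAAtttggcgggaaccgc
ORC3: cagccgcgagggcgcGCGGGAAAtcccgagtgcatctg
TOPBP1: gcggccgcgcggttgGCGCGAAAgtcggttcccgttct

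Other genes of replication, the supply of nucleotides and mitosis were listed to set beside the 51. Of 36 other replication genes, 35 were tested and 32 of these were lower, against 53.7% of all genes. Past the threshold were 2 of them, where 0.670% of all genes fell, and the median log2 fold change was −0.57. RBBP4, the histone-binding small subunit of CAF-1 that also serves in other chromatin complexes, was at 252.56, 205.66 and 187.76 TPM in control and 60.75, 64.23 and 48.52 TPM in knockdown libraries, and fell by 1.88 in log2 units (standard error 0.18, adjusted p = 0.00733 from limma). POLE3, a histone-fold subunit of polymerase epsilon, was at 68.95, 70.44 and 89.26 TPM against 31.56, 30.50 and 32.73 TPM, and fell by 1.23 (standard error 0.17, adjusted p = 0.0252 from limma). The log2 fold changes of CHAF1A and CHAF1B, the other CAF-1 subunits beside RBBP4, were −0.85 and −0.65, and the difference between the CAF-1 subunits was not tested. TIPIN, the partner of TIMELESS, chosen after its values were seen, was at 35.07, 23.42 and 39.96 TPM against 15.97, 6.38 and 9.34 TPM (log2 fold change −1.60, standard error 0.33, adjusted p = 0.0718 from limma). The genes called over this list and the lists of nucleotide supply and mitosis were 3 in all, 10 without control replicate 1, 0 without control replicate 2 and 26 with the GC trend removed. The share of all genes called moved along with these counts. It was 1.04% with all 6 libraries as deposited, 3.49% without control replicate 1, 0.0856% without control replicate 2 and 8.07% with the GC trend removed. TOP2A, the most abundant of the 36, was at 295 ± 83.7 and 228 ± 54.7 TPM (SD, n = 3), with overlap.

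Of the 11 nucleotide supply genes, 10 were lower, with a median of −0.59, 8 at an unadjusted p under 0.05 and 0 past the threshold in limma. To set beside this list and that of mitosis, 53.7% of all genes tested were lower and 13.4% were lower without overlap. In limma, 9.70% were lower at an unadjusted p under 0.05, and 0.670% fell. RRM2, the S phase subunit of ribonucleotide reductase, was at 464.28, 401.79 and 754.72 TPM in control and 305.89, 267.77 and 258.52 TPM in knockdown libraries (log2 fold change −0.91, adjusted p = 0.112 from limma). All 24 mitosis genes were lower as well, with a smaller median of −0.38, 10 without overlap and 1 past the threshold. This was AURKA, the spindle kinase, at 148.79, 149.62 and 173.91 TPM in control and 77.50, 73.60 and 74.97 TPM in knockdown libraries, which fell by 1.05 (standard error 0.14, adjusted p = 0.0252 from limma). CDC20, the most abundant of the 24, was at 353 ± 70.3 and 242 ± 20.6 TPM (SD, n = 3) and did not pass. The difference between the medians of the replication and mitosis genes was not tested, nor was the part that the share of cycling cells had in either.

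The 7 letters GAGTGAA, which an earlier look at these data had singled out in 3′UTRs, were in the 3′UTR of 3 of the 51 genes (5.88%) and of 12.5% of the 11539 genes tested that have a 3′UTR of at least 50 bases. The 3 were MCM6, TIMELESS and POLD3, of which MCM6 and TIMELESS fell and POLD3 did not pass the threshold (log2 fold change −0.74, standard error 0.21, adjusted p = 0.135 from limma). MCM3, MCM4 and CDC45, which fell as well, did not hold them. Of the 70 tested genes in the lists of other replication, nucleotide supply and mitosis genes, 8 held the letters: RBBP4 and POLE3, which fell, and TIPIN, DTL, ATAD5, TOP1, RNASEH2C and RRM2B, which did not pass the threshold and had log2 fold changes from −1.60 (TIPIN) to 0.57 (RRM2B). The sites are shown in capitals with 7 bases on each side, from transcripts on hg38. They lie at chr2:135840342-135840362 (minus strand) in MCM6, chr12:56417404-56417424 (minus strand) in TIMELESS and chr11:74641608-74641628 (plus strand) in POLD3.
MCM6: taacctgGAGTGAAgaggtag
TIMELESS: gaggagtGAGTGAAatagaga
POLD3: acctagaGAGTGAAacccgta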

How the data were processed

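RNA-Seq libraries of poly(A)-selected RNA from SK-Hep1 cells were analysed, 3 of control and 3 of knockdown cells, grouped by their titles. The authors deposited 1 table of TPM per library, rounded to 2 decimals. Per the study's methods reads were trimmed with fastp, aligned with STAR and quantified with RSEM, whereas the submitters' processing notes name HISAT2 2.0.5 and hg38, and which of these made the tables could not be settled. All 62700 versioned gene identifiers were those of GENCODE release 44, which gave names, positions, GC content of the longest transcript and 3′UTRs, although the methods name a later release. TPM keep no read number, so the depth is unknown and precision rests on 3 libraries per group.

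Tests used log2(TPM + 1), so fold changes understate the change of low genes. Genes whose mean reached 1 TPM were tested with limma 3.58.1 in R 4.3.3 (lmFit, eBayes with trend, 2-sided, no replicate block, all 6 libraries), with Benjamini-Hochberg adjustment over all 14020 genes. A gene was called at an adjusted p under 0.05, and "fell" or "rose" is written only of called genes. The members and lists were chosen with earlier results of these data known, as was the 3′UTR motif. Within each group, the member with the highest mean TPM, the member with the largest absolute log2 fold change and every called gene were named, as were called genes and the most abundant gene of the other lists. Further members were named to complete a complex. The GC trend was removed per library with loess (span 0.3). The alternatives are listed with their effect at the end. The fit was tested on simulated data. Promoter windows were taken from RefSeq (GRCh38.p14) and searched in Python 3.11.15.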

Additional observations from a re-analysis of the deposited data

How the results depend on the processing

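The number of replication genes called, 5 of 51 with 146 of all genes and 3 of the genes in the other lists, depended on the processing, while their direction did so little: between 48 and 51 of the 51 were lower in every alternative run, and their median log2 fold change stayed between −0.66 and −0.52. Leaving out 1 library gave between 0 and 11 members, between 12 and 489 genes, and between 0 and 10 genes of the other lists. With no filter on low values there were 0 members, 13 genes and 1 gene of the other lists, since 27381 genes entered the adjustment. In that fit 34 members had an unadjusted p under 0.05 in limma, and the share of all genes with such a p was not counted. Median-of-ratios scaling (MCM3 and MCM6) and eBayes without trend (MCM3 and TIMELESS) each gave 2 members, and the cause was not tested. Removal of the GC trend gave 31 members, 1132 genes and 26 genes of the other lists, and limma's arrayWeights gave 35, 3218 and 35. The arrayWeights fit weighted control replicate 2 at 3.00 and knockdown replicate 2 at 4.39, and every other library between 0.316 and 0.948. It thus rested mostly on replicate 2 of each group, so its larger counts are not taken as stronger evidence. A replicate block gave 24 members, 861 genes and 21 genes of the other lists, and the replicate block with the GC trend removed gave 31, 1134 and 27. The deviations of libraries with the same number correlated at 0.410, 0.0359 and 0.279. The study names no pairing, so the main test had no replicate block, and whether a shared number marks a pairing was not tested. Pseudocounts of 0.1 and 5, robust estimation, TPM without mitochondrially encoded genes, quantile normalization and a minimum of 5 TPM gave between 4 and 6 members. Signs turned for genes near 0: RPA2 under quantile normalization (0.025) and TICRR under arrayWeights (0.023). With 1 library left out, ORC3 ranged from −0.61 to 0.075, ORC5 from −0.15 to 0.048 and RFC1 from −0.041 to 0.25. Among named genes, 867 values kept direction and side of the threshold, 108 newly passed it and 44 no longer did. Depth is unknown, so counting error could not be set beside the spread.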
